A study of Mus musculus with 6 samples.

Results

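The 9 genes described here move cholesterol out of cells or handle the lipoproteins that carry it. They are the transporters Abca1 and Abcg1, the apolipoprotein gene Apoe, the lipoprotein receptor gene Lrp1 and the receptor regulator Mylip. The others are the plasma lipase gene Lpl, the plasma transfer protein gene Pltp, and Soat1 and Nceh1, which form and split cholesteryl esters. The 9 genes were taken by symbol from a table of 19323 genes, where all 9 were found, and all 9 passed the filter on low values. The libraries came from CD8+ T cells isolated from the spleens of wild-type C57BL/6 mice. The mice were 6 weeks old when a diet of 7 weeks began, which was ND for 3 libraries and MCDHFD, described in the labels as a model of MASH (metabolic dysfunction-associated steatohepatitis), for the other 3. The diets are named as in the labels, which do not give their composition. They also do not say whether each library came from its own animal, so the replicate spread behind each p-value may be technical.

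Cells take up cholesterol as lipoprotein, store it as ester in droplets, and release it through ABC transporters to apolipoproteins outside the cell. The nuclear receptor LXR, which binds oxidized sterols and pairs with RXR, switches on Abca1, Abcg1, Apoe, Lpl, Pltp and Mylip when cell cholesterol is high. This programme is best known from macrophages, which clear dead cells and red cells in the spleen, while in T cells ABCG1 and LXR are known for limiting the sterol available for proliferation.

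The deposited normalized counts (reads per gene divided by a size factor per library) summed to between 14119816 and 14752121 per library. Markers of the labelled cell type were present in every library, but their summed share fell from 0.644 to 0.651% of normalized counts in ND to 0.284 to 0.320% in MCDHFD. Of these markers, 15 of 15 were called lower. For this and the counts that follow, 30.3% of all tested genes were called higher and 28.1% lower. Markers of monocytes and macrophages went from 0.368 to 0.425% in ND up to 1.57 to 1.89% in MCDHFD. Of the 17 tested of 18, 15 were called higher and Timd4 lower, while Lyz2 did not pass the test. Markers of other cells moved as well. Neutrophil markers took 0.0106 to 0.0155% in ND and 0.0657 to 0.113% in MCDHFD (8 of 9 tested called higher, median log2 difference 3.45), and erythroid markers 0.0159 to 0.0169% and 0.0663 to 0.0881% (9 of 9 higher, median 3.33). B cell markers took 0.0512 to 0.0653% and 0.0125 to 0.0158% (10 of 10 lower, median -1.95). Dendritic cell markers took 0.403 to 0.439% and 0.181 to 0.188% (11 of 12 lower and 1 higher, median -1.90). The dendritic share came mostly from Cd74, Ccr7, H2-Ab1 and H2-Aa (means of 22629, 16304, 9820 and 8008 in ND). Flt3 was at 634 in ND and 167 in MCDHFD, and Clec9a at 419 and 84.3. Among the neutrophil markers, Elane and Mpo were below the minimum mean of 10 in ND. Siglech and Cd209a among the dendritic markers were below it in MCDHFD. These genes passed the filter through the other diet alone, so their direction was fixed. The liver-cell marker Alb was at 0 in all ND libraries and in 2 of 3 MCDHFD libraries. In bulk RNA, more cells of a type and more RNA per cell cannot be told apart.

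All 9 genes were higher in MCDHFD in limma at an adjusted p under 0.05, where 30.3% of the 13430 tested genes were called higher and 28.1% lower (58.4% in either direction); the direction of Abcg1, Mylip, Soat1 and Nceh1 turned when libraries were scaled to equal macrophage markers, as described below. Of these 9, 7 were higher by at least 1 on the log2 scale, against 13.1% of tested genes. The 2 diets did not overlap in any of the 9, and 33.2% of tested genes were higher without overlap. The median log2 difference, MCDHFD minus ND, was 2.23 for the 9 genes and 0.00 for all tested genes. Together the genes took 0.0965% ± 0.00881 of normalized counts in ND and 0.697% ± 0.057 in MCDHFD (mean ± SD, n = 3 per diet). Most of this sum in MCDHFD came from Apoe (0.0191% in ND, 0.29% in MCDHFD) and Lrp1 (0.0314% and 0.278%). The sum thus says little of the other members.

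**Figure D1:**
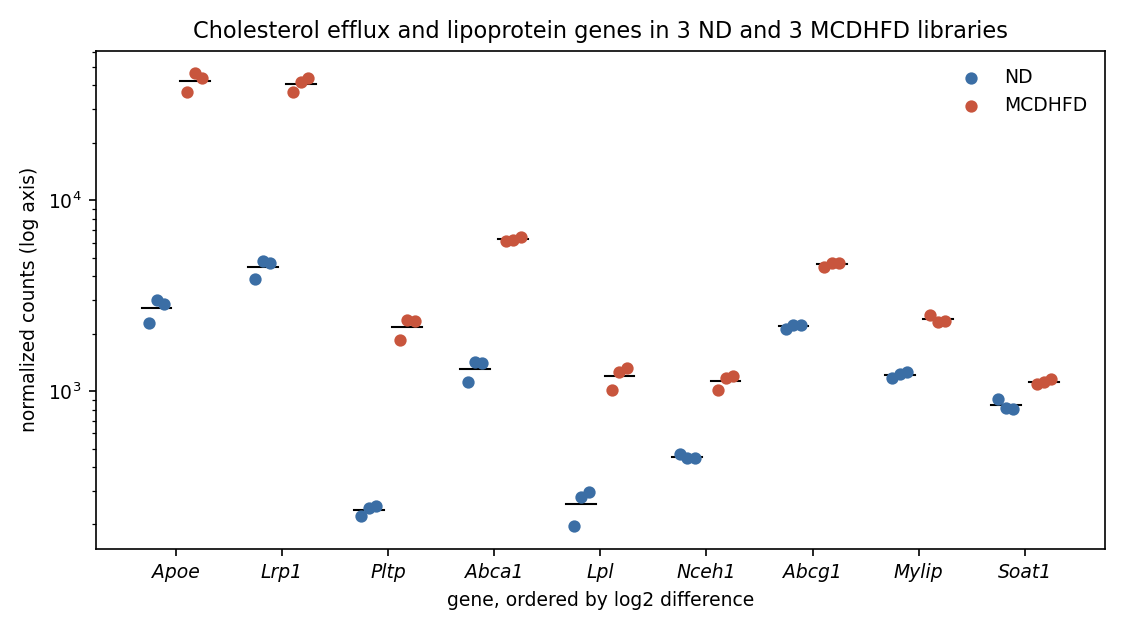
Normalized counts (log axis) of the 9 genes in each of the 3 ND and 3 MCDHFD libraries, ordered by log2 difference, where points are libraries and black lines are means. Apoe, at the left, lay at 2263 to 2997 in ND and 36913 to 46275 in MCDHFD, and Soat1, at the right, at 809 to 905 and 1091 to 1154.

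Apoe encodes the apolipoprotein that accepts cholesterol from cells and is the ligand by which receptors clear remnant lipoproteins. Its normalized counts were 2263, 2997 and 2870.3 in ND replicates 1 to 3 and 36913, 46275 and 44036 in MCDHFD replicates 1 to 3. Replicate 1 was the lowest library within each diet, and every MCDHFD library lay far above every ND library. The mean rose 15.65-fold, from 2710.3 ± 392 to 42408 ± 4889 (log2 difference 3.97, SE 0.12, limma adjusted p = 9.1e-08), the largest difference among the 9 genes and the 120th highest among all tested genes. Apoe (ENSMUSG00000002985) is a protein-coding gene on chromosome 7 of mm10, at 19696109 to 19699188 on the minus strand. Of 10 further genes listed as apolipoproteins and their receptors, 3 passed the filter on low values: Apoc1, Apobr and Apoc2. Apoc2 passed through its MCDHFD libraries alone, so that its direction was fixed by the filter. Apoc1, a small apolipoprotein that tempers lipase activity, was at 27.4, 23.4 and 26.7 in ND and at 402, 590 and 520.1 in MCDHFD (log2 difference 4.22, limma adjusted p = 2.26e-07). Apoc2, the activator of lipoprotein lipase, went from 5.87 ± 2.89 to 96.0 ± 25.0 (log2 difference 3.88). Apobr, a receptor for remnant particles, was at 509 ± 28.0 and 747 ± 142 (log2 difference 0.54). Apoc4 was at 0 in every ND library and at 0, 10.8 and 6.71 in the MCDHFD libraries, and was not tested.

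Abca1 and Abcg1 encode the exporters of the pathway: ABCA1 is a full transporter that loads lipid-poor apolipoprotein, and ABCG1 a smaller transporter that works as a dimer and adds sterol to formed HDL. Abca1 was at 1113, 1417 and 1408 normalized counts in ND and at 6120.4, 6178 and 6458 in MCDHFD. Its 3 MCDHFD libraries lay close together, with ND replicate 1 somewhat below the other ND libraries. The mean rose 4.76-fold (log2 difference 2.26, SE 0.09, limma adjusted p = 2.45e-07). Abcg1 was at 2128, 2226 and 2218 in ND and at 4476, 4672 and 4684 in MCDHFD, with little spread in either diet. It rose 2.11-fold (log2 difference 1.07, SE 0.05, limma adjusted p = 4.22e-07) on the deposited scaling and was lower when macrophage markers were held equal (-0.71). Abca1 (ENSMUSG00000015243) lies on chromosome 4 at 53030787 to 53159895 on the minus strand, and Abcg1 (ENSMUSG00000024030) on chromosome 17 at 31057675 to 31117988 on the plus strand.

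The promoter of Abca1 is shown because it holds a paired repeat of the kind that LXR with RXR binds. The 250 bases before its RefSeq start (GRCm38.p6, chr4:53159896-53160145, minus strand, 5′ to 3′) read as follows, with the element in capitals.
Abca1 promoter: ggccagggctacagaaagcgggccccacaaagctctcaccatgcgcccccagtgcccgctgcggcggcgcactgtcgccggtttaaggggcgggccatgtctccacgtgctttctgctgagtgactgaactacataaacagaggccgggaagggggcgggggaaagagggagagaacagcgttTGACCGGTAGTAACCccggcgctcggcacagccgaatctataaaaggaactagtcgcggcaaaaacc
Element on the other strand: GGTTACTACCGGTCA
The element runs from 67 to 53 bases before the start. The pattern searched was GGTNA, any 5 bases and then GGTCA, written for this search after the DR4 type of LXR element, which is an imperfect repeat, on both strands of the 250 bases before each start. It was found in 58 of 32851 RefSeq promoters (0.177%). Among the 7 of the 9 genes that have a promoter in the RefSeq table, Abca1 alone matched, and Abcg1 and Lpl have no entry. The open base in the first repeat of the pattern is where the Abca1 element departs from GGTCA. The match of Abca1 is thus not independent of how the pattern was written. Elements outside the windows were not searched. The letters of a TATA box (TATAAA, either strand) stood 29 to 24 bases before the start of Abca1 and 32 to 27 before that of Mylip. In Apoe they stood further off, at 100 to 95 and 96 to 91 bases before the start. They were thus in the windows of 3 of the 7 genes, at any position, against 12.4% of all promoters. A GC box (GGGCGG, either strand) was in the windows of 4 of the 7, Abca1, Lrp1, Mylip and Pltp, against 32.7%. These matches describe letters in the windows and no binding was measured.

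The 2 exporters did not move by the same amount. Per kilobase of annotated exon, Abca1 stood at 0.368, 0.448 and 0.447 of Abcg1 in the ND libraries and at 0.963, 0.931 and 0.971 in the MCDHFD libraries. The ratio thus went from 0.421 ± 0.0459 to 0.955 ± 0.021, with no overlap of the diets (difference in the log2 ratio 1.19, exact two-sided permutation p = 0.1, which is as low as this test can go with 3 libraries per diet). Both genes of a ratio are read in the same library, so a scaling by 1 factor per library leaves the ratio as it is. Apoe against Lrp1, ligand against receptor, went from 5.03 ± 0.18 to 8.61 ± 0.535 per kilobase (difference in the log2 ratio 0.78, exact permutation p = 0.1).

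**Figure D2:**
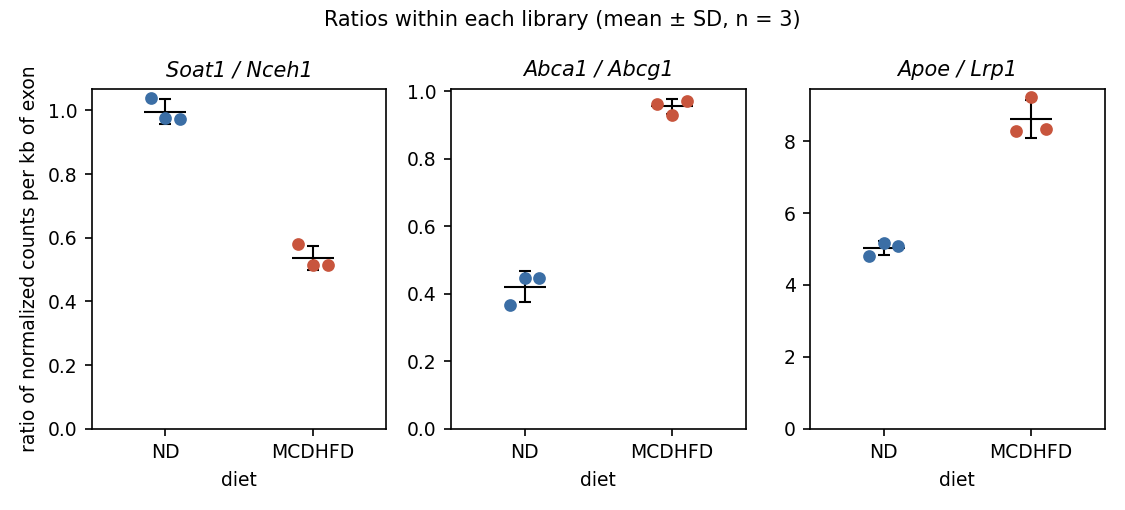
Ratios of normalized counts per kilobase of exon within each library for 3 gene pairs, with points for libraries and black bars for mean ± SD (n = 3 per diet). Abca1 against Abcg1 rose from 0.421 to 0.955 and Apoe against Lrp1 from 5.03 to 8.61, while Soat1 against Nceh1 fell from 0.995 to 0.536.

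Lrp1 encodes a large endocytic receptor that binds apolipoprotein E, protease complexes and apoptotic cells. It was at 3889, 4808 and 4676 normalized counts in ND and at 36984, 41553 and 43776 in MCDHFD, so the lowest MCDHFD library was several times the highest ND library. The mean rose 9.15-fold (log2 difference 3.20, SE 0.09, limma adjusted p = 9.09e-08). Lrp1 (ENSMUSG00000040249) lies on chromosome 10 at 127538161 to 127621148 on the minus strand. It overlaps the antisense gene Gm16217, which was at 0.654 ± 0.567 and 0.955 ± 0.941.

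Mylip, also called Idol, encodes a ubiquitin ligase that sends lipoprotein receptors to degradation. Its normalized counts were 1173, 1230 and 1257 in ND and 2507, 2291 and 2338 in MCDHFD, and MCDHFD replicate 1 was the highest library, unlike in the other 8 genes. Mylip rose 1.95-fold (log2 difference 0.96, SE 0.06, limma adjusted p = 1.79e-06) on the deposited scaling and was lower with macrophage markers held equal (-0.82). Mylip (ENSMUSG00000038175) lies on chromosome 13 at 45389742 to 45412022 on the plus strand.

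Of the 12 other lipoprotein receptors and adaptors, 10 were tested, 7 were called higher and 2 lower, with a median log2 difference of 0.29. Sort1, a sorting receptor of the Golgi, went from 889 ± 102 to 5154 ± 607 (log2 difference 2.53). Dab2, an adaptor for clathrin uptake of lipoprotein receptors, went from 7.53 ± 2.90 to 35.6 ± 5.72 (2.14). Dab2 passed the filter on low values through MCDHFD alone, so its direction was fixed. Lrp8 went from 132 ± 16.4 to 251 ± 14.6 (0.92) and Lrp12 from 256 ± 20.3 to 418 ± 36.7 (0.70). The sorting receptor gene Sorl1 was among the lower genes (-0.31). Of 9 receptors and binding proteins of modified lipoprotein, 7 of the 8 tested were called higher, with a median of 2.07. They include Msr1, at 17.6, 19.5 and 21.8 in ND and 2250.3, 2686 and 2772 in MCDHFD (log2 difference 6.96), Marco (3.30), Stab1 (2.85) and the HDL receptor gene Scarb1 (2.22). Cxcl16, a membrane chemokine that binds oxidized LDL, was called lower (-0.84).

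Lpl and Pltp encode secreted proteins: lipoprotein lipase splits the triglyceride of circulating particles, and phospholipid transfer protein moves phospholipid onto HDL. Lpl was at 196, 279 and 296 normalized counts in ND and at 1017, 1263 and 1325 in MCDHFD, with replicate 1 the lowest of both diets. It rose 4.68-fold (log2 difference 2.23, SE 0.16, limma adjusted p = 5.33e-06), with the widest error of the 9 genes. Pltp was at 222, 244 and 248 in ND and at 1847, 2351 and 2334 in MCDHFD, again lowest in replicate 1. It rose 9.14-fold (log2 difference 3.18, SE 0.10, limma adjusted p = 1.01e-07). Lpl (ENSMUSG00000015568) lies on chromosome 8 at 68880491 to 68907448 on the plus strand, and Pltp (ENSMUSG00000017754) on chromosome 2 at 164839518 to 164857711 on the minus strand. The annotated span of Pltp overlaps that of Ctsa, on the plus strand, which was itself higher (from 2529 ± 50.1 to 5622 ± 582, log2 difference 1.15), and without stated strand use reads in the overlap cannot be told apart.

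Of 10 other plasma lipases and regulators, 6 were tested, 4 called higher and 1 lower, with a median of 1.08. Angptl4, a secreted inhibitor of lipoprotein lipase, was at 86.2, 108 and 107 in ND and at 691, 449 and 563 in MCDHFD (log2 difference 2.47, limma adjusted p = 3.34e-06). Lipg, endothelial lipase, went from 1.30 ± 1.5, below a floor of 3 counts, to 52.2 ± 19.8, so no fold is given. Sel1l, which serves lipase maturation in the endoplasmic reticulum, differed by 0.46. The lipase maturation factor genes Lmf2 and Lmf1 differed by -0.28 (called lower) and -0.25 (limma adjusted p = 0.068). Lpl and the lipase inhibitor gene Angptl4 were therefore both higher in the same libraries. The activator gene Apoc2 was higher too, but its direction was fixed by the filter.

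Soat1 encodes the acyltransferase that makes cholesteryl ester for storage, and Nceh1 a hydrolase that releases cholesterol from that store. Soat1 was at 905, 812 and 809 normalized counts in ND and at 1091, 1120.4 and 1154 in MCDHFD, the smallest gap between diets of the 9 genes. It rose 1.33-fold (log2 difference 0.42, SE 0.07, limma adjusted p = 0.000627) and Nceh1, at 468, 447 and 446 in ND and 1010, 1167 and 1206 in MCDHFD, rose 2.48-fold (log2 difference 1.31, SE 0.08, limma adjusted p = 1.92e-06), whereas both were lower with macrophage markers held equal (-1.37 and -0.47). Per kilobase, Soat1 stood at 1.04, 0.976 and 0.972 of Nceh1 in ND and at 0.58, 0.515 and 0.514 in MCDHFD, a fall of the ratio in every MCDHFD library (difference in the log2 ratio -0.89, exact permutation p = 0.1). Soat1 (ENSMUSG00000026600) lies on chromosome 1 at 156424525 to 156474331 on the minus strand, and Nceh1 (ENSMUSG00000027698) on chromosome 3 at 27182965 to 27284608 on the plus strand.

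Among 12 other genes of ester turnover and lysosomal cholesterol export, 9 were tested, 8 called higher and 1 lower, with a median log2 difference of 1.18. Plin2, which coats lipid droplets, went from 357 ± 21.2 to 2629.9 ± 64.8 (2.88). Soat2, the second esterifying enzyme, went from 38.3 ± 10.9 to 203 ± 24.3 (2.41), Pnpla2, a droplet triglyceride lipase, from 1188 ± 96.4 to 4236 ± 285 (1.83) and Lamp2, a lysosomal membrane protein, from 824 ± 41.4 to 2396 ± 284 (1.53). Npc2, the soluble carrier of cholesterol in lysosomes, was the lower gene (-0.20, limma adjusted p = 0.0226).

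Levels of different genes were compared per kilobase of annotated exon. In ND the order from the top was Apoe (1268 ± 183 normalized counts per kilobase), Mylip (377 ± 13.3), Abcg1 (300.2 ± 7.43), Lrp1 (252 ± 28.0), Abca1 (127 ± 16.7), Pltp (93.0 ± 5.49), Nceh1 (86.3 ± 2.36), Soat1 (86.0 ± 5.55) and Lpl (24.5 ± 5.12). The libraries of Pltp and Nceh1 overlapped, as did those of Nceh1 and Soat1, so these neighbours are not ordered. In MCDHFD Apoe was again at the top (19835 ± 2287), followed by Lrp1 (2301 ± 195), Pltp (849.8 ± 112), Mylip (736 ± 35.2), Abcg1 (632 ± 16.0), Abca1 (603 ± 17.5), Nceh1 (215 ± 19.7), Lpl (115 ± 15.5) and Soat1 (115 ± 3.25). Pltp and Mylip overlapped there, as did Abcg1 and Abca1, and Lpl and Soat1. The genes with the highest levels after Apoe in ND, Mylip and Abcg1, were below Lrp1 in MCDHFD.

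The LXR genes themselves did not pass the test, while the RXR gene Rxra did. Nr1h3 (LXR alpha) was at 466, 518 and 563 normalized counts in ND and at 455, 518 and 498 in MCDHFD, with overlapping diets (log2 difference -0.07, SE 0.09, limma adjusted p = 0.535). Nr1h2 (LXR beta) was at 2116 ± 166 and 2405 ± 183 and did not pass either (0.19, limma adjusted p = 0.0655). Rxra rose from 1006 ± 18.6 to 3500 ± 139 (1.80, limma adjusted p = 9.09e-08) and Rxrb was called higher by 0.19. Of 8 genes listed as other LXR targets, with Nr1h3 among them, 6 were called higher and 1 lower, with a median of 0.56. Tgm2, a transglutaminase, went from 1095 ± 47.3 to 5973 ± 280.4 (2.45), Lpcat3, which puts polyunsaturated chains into phospholipid, differed by 0.86, the secreted nucleotide phosphodiesterase gene Smpdl3a by 0.78 and Abca9 by 0.67. Arl4c, a small GTPase linked to ABCA1 transport, was called lower (-0.36).

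Of 12 other sterol transporters, 5 were called higher and 4 lower, a near-even split with a median of 0.29. Abcg4, a relative of ABCG1, went from 11.8 ± 2.03 to 129 ± 29.1 (log2 difference 3.33) and Abcg2 from 82.0 ± 9.17 to 244 ± 59.9 (1.54), besides Scarb1. Gramd1a, which carries cholesterol from the plasma membrane to the endoplasmic reticulum, fell from 7439 ± 22.6 to 3186 ± 302 (-1.23), and the other lower genes were Stard4 (-0.76), Abca2 (-0.33) and Abca7 (-0.33). Stard3 was at 664 ± 31.6 and 620 ± 46.8 and did not pass. Over all the lists, 58 of 76 genes were tested, of which 41 were called higher and 10 lower, against 30.3% and 28.1% of all tested genes, with a median of 0.62. Apoc2, Dab2 and Lipg were among the genes below the minimum mean of 10 in ND that passed the filter only through MCDHFD, so they had to be higher there. With macrophage markers held equal 13 of the 58 were higher and 38 lower, where 3.94% of all tested genes were higher and 89.3% lower.

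**Figure D3:**
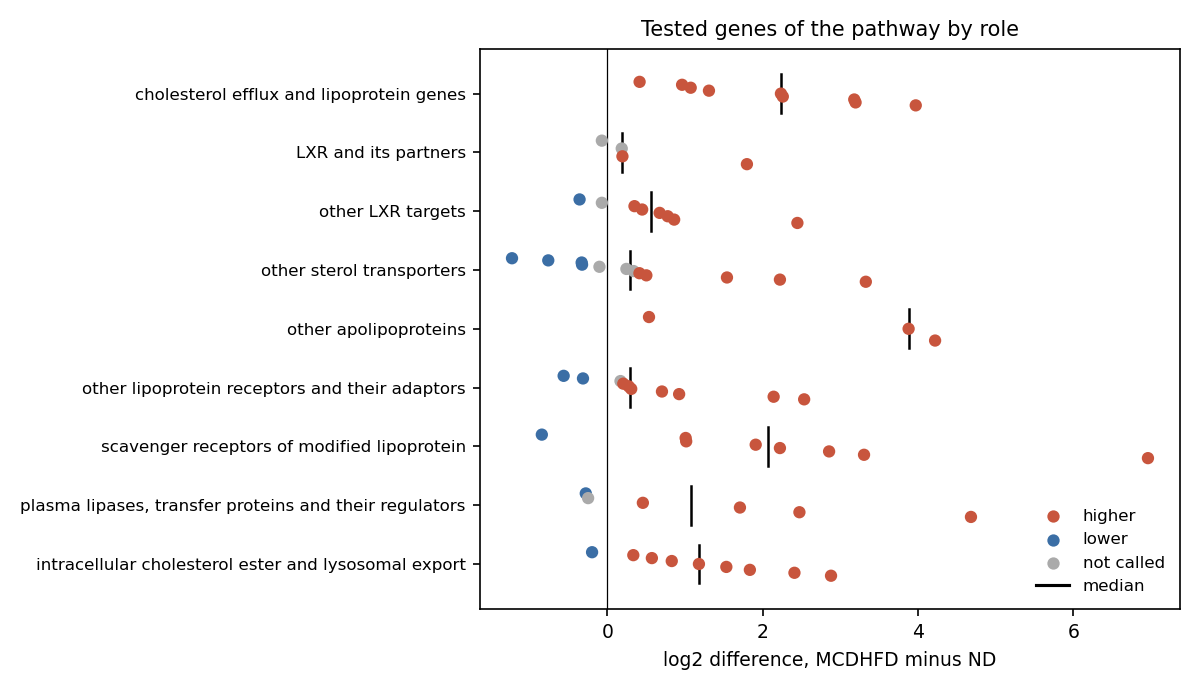
Log2 difference, MCDHFD minus ND, on the deposited scaling, of the tested genes in each list, where points are genes (red called higher, blue called lower, grey not called) and black lines are list medians. The 9 genes, in the top line, lie between 0.42 and 3.97, and the sterol transporters span both sides of 0. With macrophage markers held equal, 38 of the 58 listed genes were lower, where 89.3% of all tested genes were.

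Macrophage markers, like those of neutrophils and erythroid cells, were higher in MCDHFD together with the 9 genes, and the macrophage share is given here library by library. Replicate 1 had the lowest macrophage marker share within each diet, 0.368% against 0.422 and 0.425% in ND and 1.57% against 1.89 and 1.88% in MCDHFD. ND replicate 1 was the lowest ND library in 7 of the 9 genes, and MCDHFD replicate 1 the lowest MCDHFD library in 8 of 9. The share of all tested genes that were lowest in replicate 1 was not counted, so these counts have no background. The summed share of the 9 genes was 0.0864% in ND replicate 1 against 0.102 and 0.101%. In MCDHFD replicate 1 it was 0.631% against 0.732 and 0.727%.

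**Figure D4:**
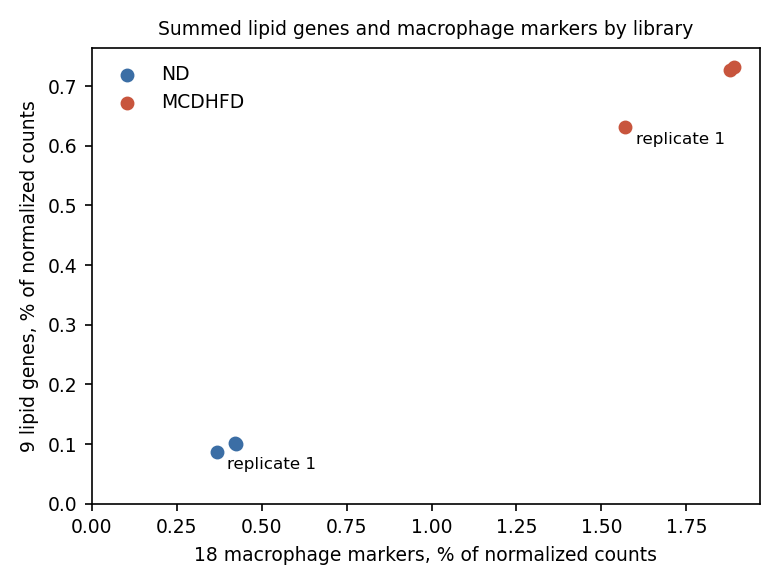
Summed share of the 9 genes in all normalized counts (percent) against that of 18 macrophage markers (percent), with 1 point per library (ND blue, MCDHFD red, replicate 1 labelled; the other replicates nearly coincide). Replicate 1 of each diet lies lowest on both axes. Apoe and Lrp1 hold the largest parts of the summed share.

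With the mean log2 level of the macrophage markers held equal in all libraries, the median of tested genes moved to -1.78, and the 9 genes separated. Apoe (log2 difference 2.19, SE 0.12, limma adjusted p = 2.27e-10), Lrp1 (1.42), Pltp (1.40), Abca1 (0.48, limma adjusted p = 0.00143) and Lpl (0.45, limma adjusted p = 0.00554) were higher relative to these markers, where 3.94% of tested genes were called higher. Nceh1 (-0.47), Abcg1 (-0.71), Mylip (-0.82) and Soat1 (-1.37) were lower relative to them, where 89.3% of tested genes were called lower. With CD8 T cell markers held equal instead, the median of tested genes moved to 1.09 and all 9 were called higher, from 1.51 for Soat1 to 5.06 for Apoe, where 85.3% of tested genes were called higher. Either scaling shifts all genes of a library by the same amount, so the differences relative to the median of tested genes remained 0.41 for Soat1 to 3.97 for Apoe. The part of RNA from macrophages, or from the other cells whose markers moved, in the rise of the 9 genes was not tested.

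**Figure D5:**
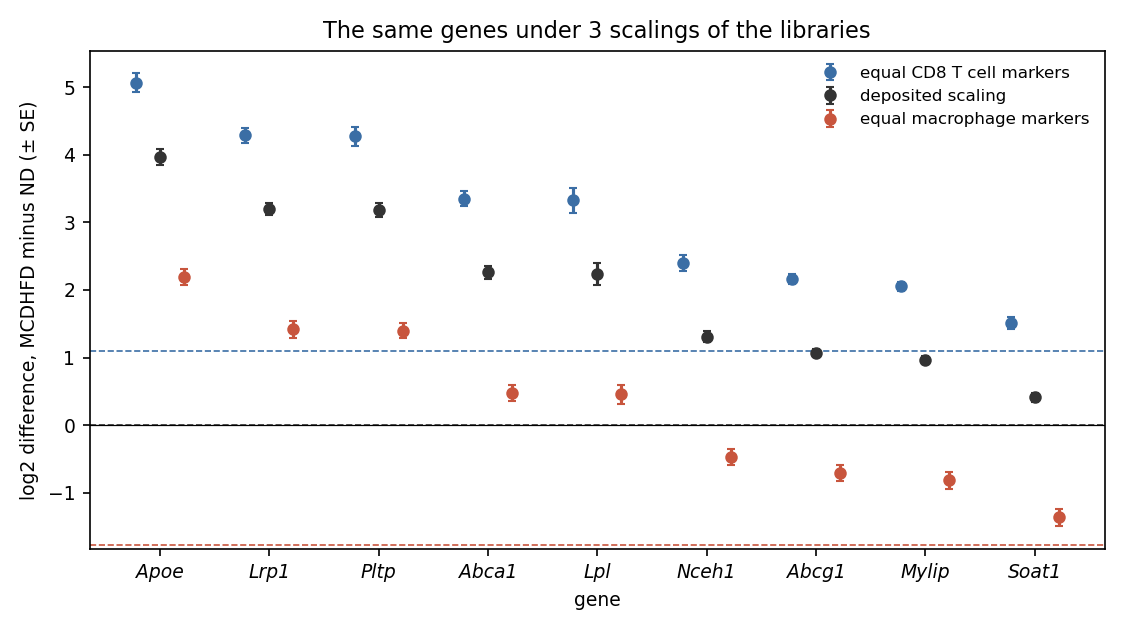
Log2 difference, MCDHFD minus ND (± SE from limma, 3 libraries per diet), of the 9 genes under 3 scalings, where dashed lines mark the median of all tested genes under each. With macrophage markers held equal, Apoe, Lrp1, Pltp, Abca1 and Lpl lie above 0 and Nceh1, Abcg1, Mylip and Soat1 below it.

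Genes of like pattern were sought among 10478 tested genes of higher mean, by the root mean square difference over the 6 libraries of log2 values set relative to ND. Lrp1 was nearest to Lgmn (0.066), a lysosomal protease gene that went from 1964 ± 196 to 19022 ± 1685 normalized counts, and to Ctnnd1 (0.066) and Ifi207 (0.068). Pltp was nearest to Ctnnd1 (0.053) and next to Cd163 (0.083), the haemoglobin scavenger receptor of macrophages. Apoe had more distant neighbours, Nfasc (0.123), Matn2 (0.130) and Pla2g7 (0.133), the last a lipoprotein-bound phospholipase that went from 696 ± 103 to 9604 ± 1215. Abca1 lay near Gpr83 (0.055), the lysosomal protease gene Ctsb (0.069) and the thromboxane synthase gene Tbxas1 (0.071), and Lpl near Ctsf (0.063), Asah1 (0.081) and Ctsb (0.094), the first and the last again lysosomal proteases and Asah1 a ceramidase. Abcg1 was nearest to Sbno2 (0.022), Ptpn1 (0.023) and Sgk1 (0.025), Mylip to Dirc2 (0.034), Gpam (0.039) and Mtmr1 (0.041), Soat1 to Pphln1 (0.026), Map3k2 (0.028) and Notch2 (0.032), and Nceh1 to Klhl5 (0.034), Picalm (0.034) and Gabarapl1 (0.043).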

How the data were processed

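RNA was extracted with TRIzol and made into libraries with either of 2 kits, for whole RNA or mRNA, per the labels' protocols; the sources used here do not give the kit of each library, the aligner, the counter, its strand setting or the gene models. Reads were processed on mm10, per the submitters' processing notes. The deposited table is a signal, gene read counts that the authors scaled by a size factor per library: in every library 100% of values were whole multiples of the smallest value above 0, at a tolerance of 0.01. In 5 libraries whole reads were used in count tests, 13188812 to 15482458 per library. ND replicate 3, whose smallest value above 0 lay nearest to 1 (0.990), was left out of those. That of MCDHFD replicate 2, which was kept, was close to it (0.983). The ND side of the count tests was therefore ND replicates 1 and 2 only. Floors of 3 counts cover counting error only. Whole reads of the 4 same-diet pairs differed by more than sampling noise (chi-square over its degrees of freedom, 6.11 to 11.5).

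Symbols were matched by identifier for 19202 genes, and coordinates and exon lengths came from GENCODE M21 on mm10, which may differ from the authors' annotation. Promoters came from RefSeq (GRCm38.p6). Genes with a mean of at least 10 were tested with limma 3.58.1 under R 4.3.3, with an intensity trend and no covariate beside diet, on log2 of the value plus 1, a scale that understates changes of low genes, with Benjamini-Hochberg adjustment over all tested genes at 0.05. Ratios were tested by an exact permutation of libraries over 20 arrangements. Alternatives used edgeR 4.0.16 and DESeq2 1.42.0 on the whole reads, other scalings, filters and pseudocounts, and left out each library. The procedure was tested on simulated data.

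The 9 genes, the lists and the tests were chosen with earlier results of these data known. By rule the text names the 9 genes, in each list up to 4 genes past the threshold by size of change and the most abundant one that did not pass, and the 3 nearest genes of like pattern with a mean of at least 50. Sorl1, Cxcl16, Lmf2, Npc2, Arl4c, Stard4, Abca2, Abca7, Apoc4, Timd4, Lyz2, Alb and Ctsa were named after their values were seen, as were the promoter motifs. Some genes of the lists are counted but withheld and not reported singly here.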

Additional observations from a re-analysis of the deposited data

How the results depend on the processing

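All 9 genes were called under each of the 20 alternatives, and all 9 were higher in 19 of them, the exception being the scaling to equal macrophage markers. In the 17 alternatives without marker scaling at a threshold of 0.05, the log2 difference of Soat1, the smallest, ran from 0.35 to 0.47 (largest adjusted p = 0.0046) and that of Apoe from 3.85 to 4.07. Scaling to equal macrophage markers left 5 of the 9 genes higher and turned Abcg1 (-0.71), Mylip (-0.82), Soat1 (-1.37) and Nceh1 (-0.47) to lower, with 13 listed pathway genes higher and 38 lower and 12520 of all genes called, 529 higher and 11991 lower. Scaling to equal CD8 T cell markers left 0 pathway genes lower and called 11855 of all genes, 11458 higher and 397 lower. Both scalings shift every gene of a library by 1 value. The replicate numbers do not pair the libraries by the labels, and same-numbered libraries had correlated deviations of only 0.036, 0.062 and 0.006, with ND replicate 3 closest to MCDHFD replicate 1; with the number as a replicate block, 7707 of all genes were called against 7837, and all 9 genes remained higher. The 3 ratios kept their direction in every alternative run. Depth did not limit the 9 genes, whose lowest value in any library was 196 normalized counts, but genes near the floor, such as Apoc4 and Lipg, have no usable fold.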

Other observations

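Genes that lie within 50000 bases of the 9 genes in GENCODE M21 gave 25 tested neighbours. Of these, 7 were called higher, 5 lower and 13 neither, on the deposited scaling. Over all tested genes on that scaling, 30.3% were called higher and 28.1% lower. Around Apoe the neighbours differed from each other. Apoc1, 3449 bases away, rose with it (log2 difference 4.22). So did the adhesion receptor gene Nectin2, from 12.4 ± 4.13 to 120.0 ± 25.5 normalized counts (3.20, limma adjusted p = 2.17e-05). Apoc2, 18168 bases away, was higher as well (3.88), a direction fixed by the filter on low values. Tomm40, the mitochondrial import channel gene 2125 bases from Apoe, went from 681 ± 22.8 to 1041 ± 10.1 (0.61, limma adjusted p = 2.78e-05). Clptm1, 31076 bases away, was at 1778 ± 78.8 and 1766 ± 19.4 and did not pass (-0.01, limma adjusted p = 0.897). Beside Abca1, Nipsnap3b, 8727 bases away, was at 415 ± 18.9 and 435 ± 62.9 (0.06, limma adjusted p = 0.673). Beside Lrp1, Shmt2, a mitochondrial serine enzyme 15717 bases away, was at 1983 ± 115 and 2076 ± 219 (0.06, limma adjusted p = 0.553), while Stat6, 21838 bases away, fell from 4367 ± 74.8 to 3320 ± 57.9 (-0.40, limma adjusted p = 9.78e-05). These neighbours were chosen after their values were seen.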
